A study of Homo sapiens with 6 samples.

Results

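The glycosyltransferase genes described here are those whose probe symbol in the array annotation began with GALNT, B3GALT, B3GNT, B4GALT, ST3GAL, ST6GAL, FUT, MGAT or GCNT. The array held 79 such genes on 115 probes, among 20046 genes with a named probe. Of these, 75 are enzyme genes, 3 are antisense genes (B3GALT5-AS1, FUT8-AS1 and GALNT9-AS1) and 1, GCNT7, is a transcribed pseudogene in RefSeq. After the filter on dim probes, 44 enzyme genes and FUT8-AS1 were tested, among 11426 genes in all. The other 31 enzyme genes had no probe detected on 3 or more of the 6 arrays and were not tested. They are GALNT10, GALNT14, GALNT15, GALNT16, GALNT17, GALNT8, GALNT9, GALNTL5 and GALNTL6 of O-glycan initiation, B3GALT1, B3GALT2, B3GALT4 and B3GALT5 of galactosylation, B3GNT3, B3GNT7, B3GNT9, GCNT3, GCNT4, MGAT3, MGAT4C and MGAT5B of GlcNAc extension and branching, ST6GAL2, ST6GALNAC1, ST6GALNAC3 and ST6GALNAC5 of sialylation, and FUT1, FUT2, FUT3, FUT5, FUT7 and FUT9 of fucosylation.

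MDA-MB-231 is a basal, triple-negative breast cancer cell line grown in DMEM with serum. One group carried a lentivirus that expresses antagomiR-138, an RNA that pairs with the microRNA miR-138 and is named antimiR-138 in the labels, and the other group carried a lentivirus with a scrambled control. Each group had 3 samples, all transduced with 6 Transduction Units and harvested at 72 h, on day 3, and each sample was measured on 1 Illumina bead array. In the vector used, an H1 promoter drives the antagomiR in every transduced cell, and whether replicates came from different cultures is unstated, which limits each p-value to the spread among these 6 samples. Probes for MIR138-1 and MIR138-2 had no detection p below 0.3948, so the arrays did not check the knockdown.

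VIM, CD44, MSN, EGFR and CAV1, which mark these cells, were detected on all 6 arrays, and ESR1, PGR and KRT5 on 0. EPCAM, GATA3 and ERBB2, expected to be low, were detected on all 6 arrays, and CDH1 on at most 1. Of the 8 of these marker genes that were tested, MSN was higher in antagomiR-138 cells, EGFR, CD44, CAV1, EPCAM, GATA3 and ERBB2 were lower, and VIM did not pass the test, and their part in the results was not tested. The correlation of log2 signal between arrays was 0.9955 to 0.9963 within groups and 0.9623 to 0.9639 between groups. With 3 arrays a group, the SD within a group had a median of 0.0973 (log2). Of all genes tested, 60.1% passed the test in either direction, so a call of a single glycosyltransferase gene was made against a broad difference between the groups.

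Glycosyltransferases build sugar chains in the endoplasmic reticulum and Golgi by moving sugars from nucleotide donors to proteins, lipids or growing glycans. Mucin-type O-glycans start when a GALNT enzyme places N-acetylgalactosamine (GalNAc) on serine or threonine. Galactosyltransferases and N-acetylglucosamine (GlcNAc) transferases then extend and branch the chain, and sialyltransferases and fucosyltransferases cap it. In breast carcinomas, shortened and heavily sialylated O-glycans on mucins, and highly branched N-glycans, are well known.

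The sequence of miR-138 is shown because its inhibitor separates the groups, with the seed, bases 2 to 8, in capitals. Both genes, MIR138-1 at chr3:44114234-44114256 and MIR138-2 at chr16:56858527-56858549 (RefSeq, GRCh38.p14, plus strand), carry the same mature strand. No search for its seed in the glycosyltransferase transcripts was made.
hsa-miR-138-5p: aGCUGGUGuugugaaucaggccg

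The start-site regions of the glycosyltransferase genes with the largest rises (B3GNT5 and FUT4) and the largest falls (ST6GAL1 and ST3GAL3) are shown so that genes moving in opposite directions can be read side by side. Each is the 250 bases before the start that RefSeq annotates (GRCh38.p14). Capitals mark GC boxes, the letters GGGCGG read on either strand, of which B3GNT5 holds 5, FUT4 holds 0, ST6GAL1 holds 2 and ST3GAL3 holds 3. A GC box stands in 66.5% of the 9222 windows of genes tested here and in 42.6% of all 35116 windows of this length. Windows were on hand for 33 of the 44 tested genes and for 3 of the 8 that fell, which is too few, so a share of GC boxes over the glycosyltransferase genes is void and is not given.
B3GNT5, chr3:183253003-183253252, plus strand: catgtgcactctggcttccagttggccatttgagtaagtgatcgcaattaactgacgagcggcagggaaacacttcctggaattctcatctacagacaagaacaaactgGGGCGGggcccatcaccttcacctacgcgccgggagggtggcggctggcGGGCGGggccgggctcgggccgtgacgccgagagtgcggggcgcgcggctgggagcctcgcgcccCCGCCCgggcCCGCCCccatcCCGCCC
FUT4, chr11:94543671-94543920, plus strand: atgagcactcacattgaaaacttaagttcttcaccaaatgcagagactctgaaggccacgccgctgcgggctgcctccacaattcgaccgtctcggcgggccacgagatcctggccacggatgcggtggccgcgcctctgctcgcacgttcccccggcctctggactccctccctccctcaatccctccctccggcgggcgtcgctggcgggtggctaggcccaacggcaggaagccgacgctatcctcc
ST6GAL1, chr3:186930276-186930525, plus strand: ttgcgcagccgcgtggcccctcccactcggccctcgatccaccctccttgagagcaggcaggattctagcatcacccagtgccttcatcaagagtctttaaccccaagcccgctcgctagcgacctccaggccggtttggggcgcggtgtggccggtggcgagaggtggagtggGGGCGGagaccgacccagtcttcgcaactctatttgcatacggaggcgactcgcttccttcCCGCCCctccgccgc
ST3GAL3, chr1:43707286-43707535, plus strand: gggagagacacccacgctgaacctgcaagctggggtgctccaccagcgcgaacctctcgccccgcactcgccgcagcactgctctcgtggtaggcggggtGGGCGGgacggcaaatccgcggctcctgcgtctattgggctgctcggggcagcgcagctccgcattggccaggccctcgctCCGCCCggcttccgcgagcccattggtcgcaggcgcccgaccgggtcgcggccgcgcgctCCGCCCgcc

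More glycosyltransferase genes were higher than lower in antagomiR-138 cells. Of the 44 enzyme genes tested, 24 were higher (54.5%, against 30.9% of all genes tested) and 8 were lower (18.2%, against 29.1% of all genes). The remaining 12 did not pass limma's test at an adjusted p of 0.05, with Benjamini-Hochberg adjustment over all 11426 genes. The median log2 fold change, antagomiR-138 over scrambled control, was 0.26 for the 44 genes and 0.02 for all genes, and the median size regardless of sign was 0.43 and 0.32. At a change of at least 1.5-fold, 11 of the 44 were higher (25%, against 11.4% of all genes) and 5 were lower (11.4%, against 13.8%). The 3 arrays of 1 group did not overlap the 3 of the other in 34 of the 44 (77.3%, against 66.6% of all genes), 25 with antagomiR-138 above and 9 with it below. FUT8-AS1, the antisense gene, had a log2 fold change of 0.47 (SE 0.23, adjusted p = 0.121), and whether its probe also reads FUT8 was not tested.

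**Figure D1:**
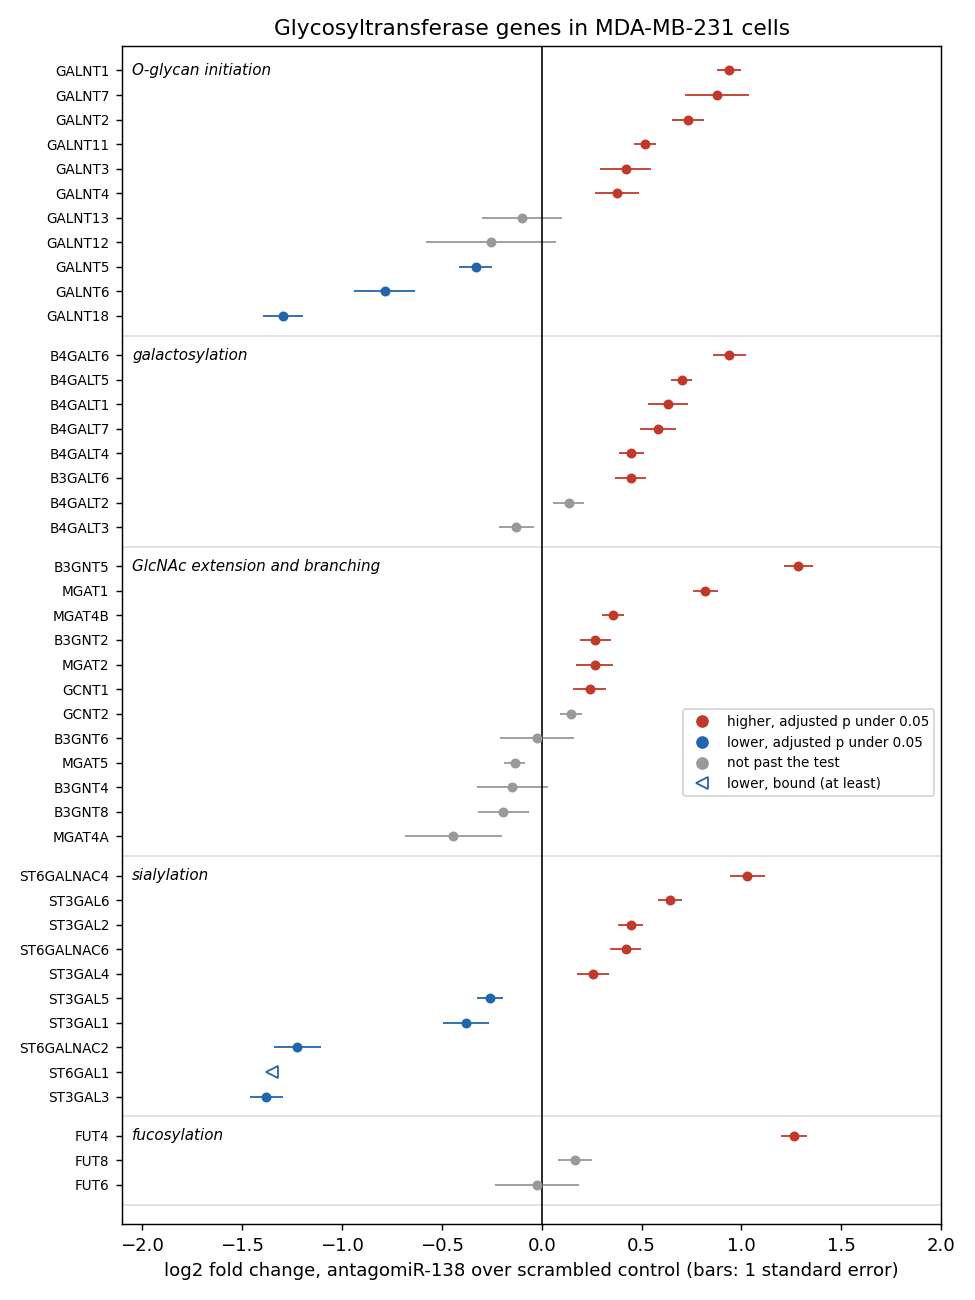
The log2 fold change (x axis, antagomiR-138 over scrambled control, bars 1 standard error, 3 arrays a group) is plotted for each of the 44 tested enzyme genes, ordered by class. B3GNT5 (1.28) and FUT4 (1.26) lie farthest to the right, and ST6GAL1, not above background on the antagomiR-138 arrays, is drawn as an open triangle at its bound (-1.35), beside ST3GAL3 (-1.38).

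The classes did not move alike. Galactosylation had 6 of 8 tested genes higher and 0 lower, with a median log2 fold change of 0.52. O-glycan initiation had 6 of 11 higher and 3 lower (median 0.38), and GlcNAc extension and branching had 6 of 12 higher and 0 lower (median 0.19). In some other settings, MGAT4A or MGAT5 of GlcNAc extension and branching was called lower. Sialylation had 5 of 10 higher and 5 lower, so that all 10 were called while the median was 0.0001. One of the 5 lower, ST6GAL1, entered the test through its control arrays alone, so the filter favoured its call as lower. The measured values of this class ran from -1.38 (ST3GAL3) to 1.03 (ST6GALNAC4), and ST6GAL1 has only a bound of -1.35. Fucosylation had 1 of 3 higher and 0 lower (median 0.17). The share called in either direction was 81.8% for O-glycan initiation, 75% for galactosylation and 100% for sialylation. It was 50% for GlcNAc extension and branching and 33.3% for fucosylation. Of all genes tested, 60.1% were called, 30.9% higher and 29.1% lower. These are descriptions of counts, and no test of one class against another was made. With no detection filter, the median was -0.0076 for O-glycan initiation, 0.30 for galactosylation, 0.0369 for GlcNAc extension and branching, -0.0637 for sialylation and -0.0231 for fucosylation, and the sialylation median was 0.26 where a gene had to be detected on all 6 arrays, which drops ST6GAL1.

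**Figure D2:**
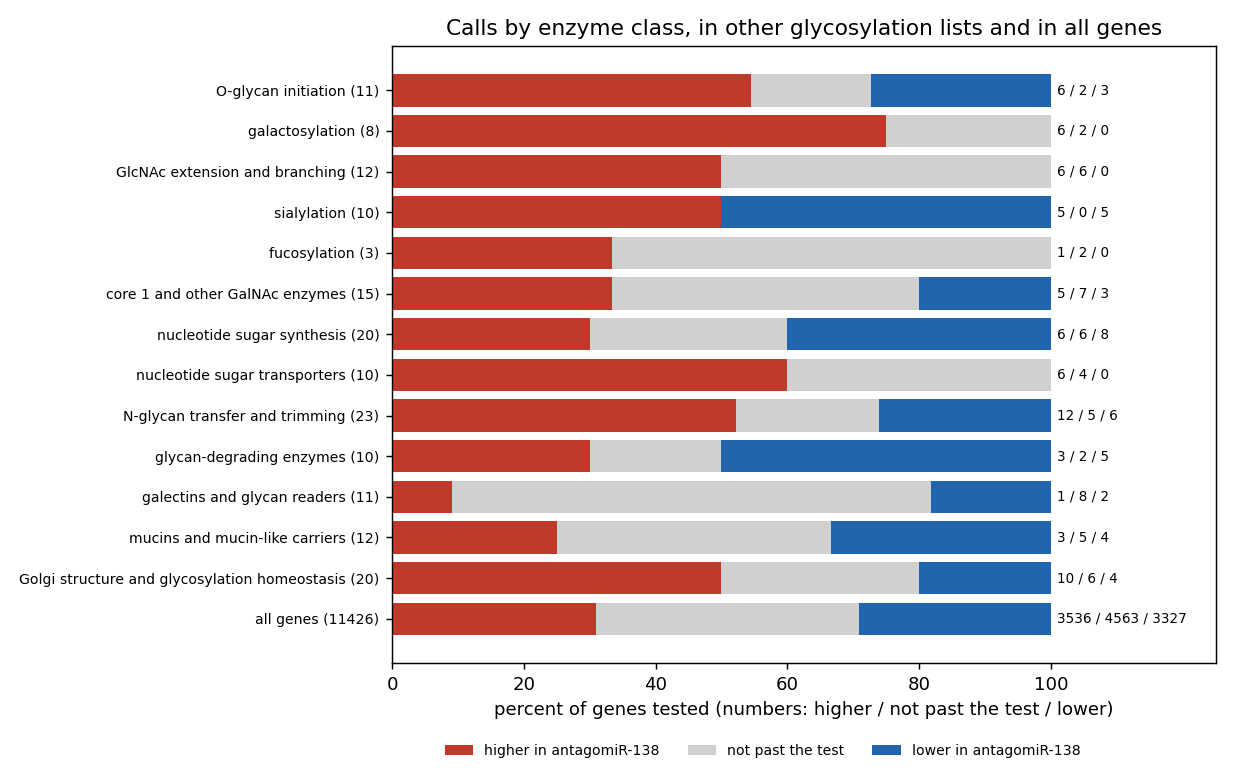
Bars give the percent of tested genes (x axis) that were higher, not past the test or lower in antagomiR-138 cells, for the 5 enzyme classes, 8 other glycosylation lists and all 11426 genes, with the number tested in brackets. Galactosylation, GlcNAc extension and branching and the nucleotide sugar transporters (6 higher, 0 lower each) and fucosylation (1 higher, 0 lower) hold no lower gene. Sialylation is divided 5 to 5, with ST6GAL1, which entered the test through its control arrays alone, among the lower. Of all genes, 30.9% were higher and 29.1% lower.

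On single arrays, the class medians were taken as deviations from the mean of scrambled control. For galactosylation they were 0.52, 0.58 and 0.52 (log2) on the antagomiR-138 arrays, against 0.03, 0.0004 and -0.06 on the control arrays. For O-glycan initiation they were 0.32, 0.38 and 0.19 on the antagomiR-138 arrays, against -0.02, 0.05 and 0.0014 on the control arrays. Neither class overlapped between groups. In each of these 2 classes, 6 genes were already called higher with separated arrays, so the medians add no separate evidence. Of all genes tested, 66.6% had separated groups. Control values lie near 0 because the control mean was subtracted. For sialylation they were -0.01, 0.09 and 0.02 on the antagomiR-138 arrays and -0.03, -0.02 and 0.0009 on the control arrays, and for fucosylation, with 3 genes, 0.05, 0.18 and 0.27 on the antagomiR-138 arrays and 0.08, -0.0046 and -0.08 on the control arrays. In both of these the groups overlapped.

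**Figure D3:**
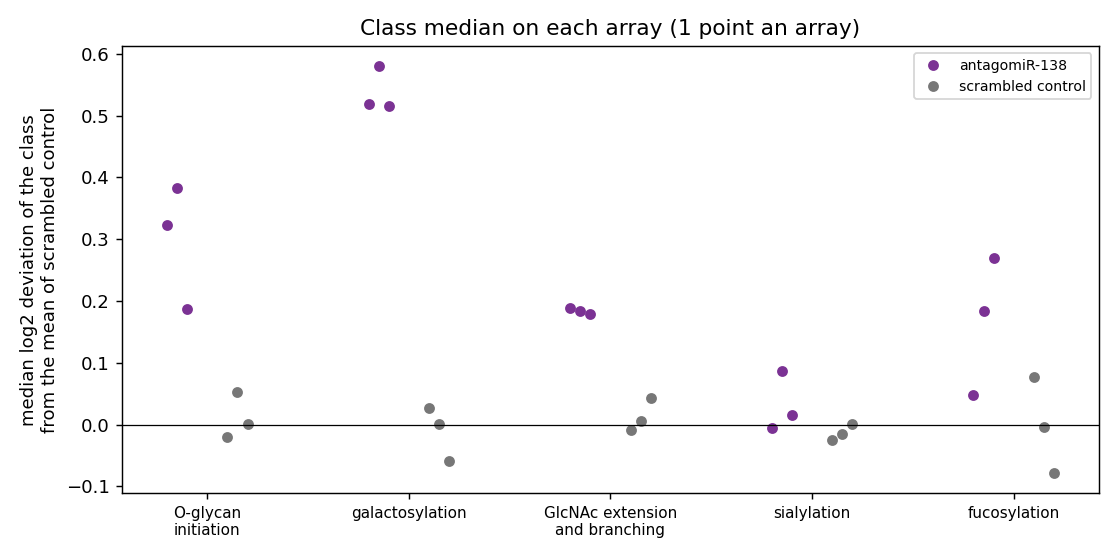
Each point is the class median on 1 array (y axis, log2 deviation from the mean of scrambled control), with the 3 antagomiR-138 arrays left of the 3 control arrays in each class. The antagomiR-138 points lie above the control points in O-glycan initiation, galactosylation and GlcNAc extension and branching, and mix with them in sialylation and fucosylation.

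Among the GALNT genes that start O-glycans, the broadly acting GALNT1 and GALNT2 rose and GALNT18 fell. GALNT1, which glycosylates many mucin-type substrates, had a normalized log2 signal of 9.71, 9.77 and 9.85 in antagomiR-138 cells, against 8.81, 8.86 and 8.83 in control cells. All its antagomiR-138 arrays lay above its control arrays, and the change was 1.92-fold (log2 fold change 0.94, SE 0.06, limma adjusted p = 2.50e-05). GALNT2, the other widely expressed initiator, had 9.05, 8.95 and 9.04 in antagomiR-138 cells, against 8.17, 8.43 and 8.23 in control cells. It too was separated between groups and was 1.66-fold higher (0.73, SE 0.08, adjusted p = 2.76e-04). GALNT7, which adds GalNAc beside sugars already in place, had 6.36, 5.83 and 6.13 in antagomiR-138 cells, against 5.06, 5.16 and 5.48 in control cells. It was near the background, above it on 3 antagomiR-138 arrays and 1 control array, and its log2 fold change was 0.88 (SE 0.16, adjusted p = 2.75e-03).

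GALNT18, a member of a subfamily with weak catalytic activity of its own, had a log2 signal of 7.23, 6.92 and 7.20 in antagomiR-138 cells, against 8.47, 8.46 and 8.30 in control cells. The fall was 2.45-fold (log2 fold change -1.30, SE 0.10, adjusted p = 5.54e-05), with no overlap. GALNT6, which glycosylates fibronectin and is studied in breast cancer, had 5.53, 5.20 and 5.00 in antagomiR-138 cells, against 5.81, 6.09 and 6.17 in control cells. It was above background on 1 antagomiR-138 array and 3 control arrays, and fell by 0.78 on the log2 scale (SE 0.15, adjusted p = 3.81e-03). GALNT5 had 6.25, 5.99 and 6.03 in antagomiR-138 cells, against 6.41, 6.37 and 6.49 in control cells. Its fall was smaller, at -0.33 (SE 0.08, adjusted p = 0.0116), with no overlap between groups, and it did not pass with trended and robust variances (adjusted p = 0.0624).

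Of the other O-glycan initiators, GALNT11, known to glycosylate NOTCH1, was higher by 0.52 on the log2 scale, GALNT3, which protects FGF23 from cleavage, by 0.42, and GALNT4 by 0.38. GALNT4 shares sequence with a readthrough gene, so its value is uncertain. GALNT13 (-0.10, adjusted p = 0.702) and GALNT12 (-0.25, adjusted p = 0.530) did not pass the test. The calls of GALNT3 and GALNT4 were lost when single arrays were left out: GALNT3 without antagomiR-138 replicate 2 (adjusted p = 0.0730) or 3 (0.0712), GALNT4 without antagomiR-138 replicate 1 (0.0578) or 2 (0.0570) or control replicate 3 (0.0697). With the methods' t-test, GALNT3 (adjusted p = 0.08793) and GALNT4 (0.07366) were lost, and GALNT4 was also lost with median scaling (0.08384). Without control replicate 1, GALNT13 passed the test as lower (-0.34, adjusted p = 0.0259).

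Of the 8 galactosyltransferase genes tested, 6 rose, among them enzymes of glycolipids, glycoproteins and proteoglycans. B4GALT6, a lactosylceramide synthase, had a log2 signal of 7.72, 7.61 and 7.53 in antagomiR-138 cells, against 6.60, 6.64 and 6.80 in control cells. The change was 1.92-fold (log2 fold change 0.94, SE 0.08, adjusted p = 9.07e-05). B4GALT5, the other lactosylceramide synthase, had 12.36, 12.40 and 12.33 in antagomiR-138 cells, against 11.67, 11.67 and 11.64 in control cells. Its arrays were tightly grouped, and it was 1.63-fold higher (0.70, SE 0.05, adjusted p = 5.02e-05).

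B4GALT1, which makes N-acetyllactosamine on glycoproteins and, with alpha-lactalbumin, lactose in the lactating breast, had 8.57, 8.71 and 8.72 in antagomiR-138 cells, against 8.24, 7.94 and 7.93 in control cells. Control replicate 1 lay nearest to the antagomiR-138 arrays, and the change was 1.55-fold (0.63, SE 0.10, adjusted p = 1.38e-03). B4GALT7 and B3GALT6, which add the galactoses of the proteoglycan linker, were higher by 0.58 and 0.45, and B4GALT4, which acts in keratan sulfate synthesis, by 0.45. The N-acetyllactosamine enzymes B4GALT2 (0.13, adjusted p = 0.179) and B4GALT3 (-0.13, adjusted p = 0.248) did not pass the test. Without antagomiR-138 replicate 3, B4GALT2 passed it as higher (0.21, adjusted p = 0.0447).

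Among the GlcNAc transferases, the enzyme that starts lacto-series glycolipids and the gate to complex N-glycans rose most. B3GNT5, which makes lactotriaosylceramide, had a log2 signal of 8.16, 8.12 and 8.32 in antagomiR-138 cells, against 6.85, 6.94 and 6.96 in control cells. The difference was 2.44-fold (log2 fold change 1.28, SE 0.07, adjusted p = 1.59e-05), the largest rise among the 44 genes. MGAT1, without which N-glycans stay in the high-mannose form, had 10.86, 10.83 and 10.96 in antagomiR-138 cells, against 10.01, 10.06 and 10.12 in control cells. It was 1.76-fold higher (0.82, SE 0.06, adjusted p = 5.17e-05), with no overlap between groups. MGAT4B, a branching enzyme, had 8.33, 8.36 and 8.41 in antagomiR-138 cells, against 8.00, 7.97 and 8.06 in control cells. The change was 0.36 (SE 0.06, adjusted p = 1.37e-03), and with median scaling of the arrays it did not pass (adjusted p = 0.0722).

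B3GNT2, the main enzyme of polylactosamine chains, was higher by 0.27, MGAT2, which acts after MGAT1, by 0.27, and GCNT1, which makes the core 2 branch of O-glycans, by 0.24. These 3 calls were lost with median scaling, at adjusted p = 0.2394 for B3GNT2, 0.1056 for MGAT2 and 0.1941 for GCNT1. MGAT2 was also lost in the authors' normalized table (0.05096), and GCNT1 with the mean of probes (0.1722). Cyclic loess (MGAT2 0.05233, GCNT1 0.05123), no detection filter (0.07319 and 0.07357) and the methods' t-test (0.09456 and 0.08236) ended these 2 calls as well. Leaving out antagomiR-138 replicate 1 ended the 3 calls too, with adjusted p = 0.0609 for B3GNT2, 0.1139 for MGAT2 and 0.0620 for GCNT1. Each was lost without some other arrays as well: B3GNT2 without control replicate 2 (0.0517), MGAT2 at 0.0682 to 0.1009 without antagomiR-138 replicate 3 or control replicate 2 or 3, and GCNT1 at 0.0815 to 0.1035 without antagomiR-138 replicate 2 or 3 or control replicate 1 or 2. GCNT2, which makes the branched I antigen (0.15, adjusted p = 0.0601), and MGAT5, whose N-glycan branch is known from metastasis studies (-0.14, adjusted p = 0.0563), lay just outside the threshold although their groups did not overlap. MGAT4A (-0.44, adjusted p = 0.157), B3GNT8 (-0.19), B3GNT4 (-0.15) and B3GNT6, the core 3 enzyme (-0.02), did not pass the test. MGAT4A passed it as lower without antagomiR-138 replicate 2 (-0.75, adjusted p = 0.00150) and with median scaling (-0.50, adjusted p = 0.0147). MGAT5 passed as lower with cyclic loess (adjusted p = 0.0292), the methods' t-test (0.00683) and trended and robust variances (0.0190). GCNT2 passed as higher without antagomiR-138 replicate 3 (0.18, adjusted p = 0.0449), with the methods' t-test (0.0336) and with trended and robust variances (0.0156). With detection required on all 6 arrays, MGAT5 (0.0483) and GCNT2 (0.04996) passed too, as they did at a detection p under 0.01 (0.0473 and 0.0497).

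The sialyltransferase genes were divided, and the largest falls of the 44 genes were among them. ST6GAL1, which caps N-glycans with sialic acid, had a log2 signal of 5.25, 5.07 and 4.76 in antagomiR-138 cells, against 6.85, 6.67 and 6.75 in control cells. ST6GAL1 had 3 probes on the array, of which only 1 entered the test. That probe was not above background on any antagomiR-138 array, where the deposited intensity was 21.3, 12.5 and -1.65, against 100.3, 87.1 and 98.6 in control cells. The change is therefore a bound, at least 2.55-fold lower, taken from the control mean against the lowest signal of detected probes on each antagomiR-138 array. The limma adjusted p of 4.22e-05 is for the signals without this bound and does not test the bound. ST6GAL1 entered the test through its control arrays alone. ST3GAL3, which caps the ends of lactosamine chains, had 8.32, 8.23 and 8.07 in antagomiR-138 cells, against 9.51, 9.66 and 9.59 in control cells. It was 2.60-fold lower (log2 fold change -1.38, SE 0.08, adjusted p = 1.98e-05), and its second probe gave -1.12. ST6GALNAC2, which adds sialic acid to the GalNAc of O-glycans, had 5.94, 6.21 and 5.84 in antagomiR-138 cells, against 7.15, 7.12 and 7.39 in control cells. It was 2.34-fold lower (-1.22, SE 0.12, adjusted p = 1.51e-04).

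ST6GALNAC4, which makes the disialylated form of core 1, had a log2 signal of 8.90, 8.73 and 8.70 in antagomiR-138 cells, against 7.65, 7.72 and 7.88 in control cells. It was 2.04-fold higher (1.03, SE 0.09, adjusted p = 8.47e-05), and its second probe gave 0.88. ST6GALNAC4 and ST6GALNAC2, of the same family, thus lay on opposite sides. ST3GAL6, which acts on lactosamine ends, had 8.14, 8.06 and 8.16 in antagomiR-138 cells, against 7.45, 7.43 and 7.55 in control cells. It was 1.56-fold higher (0.64, SE 0.06, adjusted p = 1.39e-04), while ST3GAL3 fell. ST3GAL2, which acts on core 1 and on gangliosides, had 8.50, 8.47 and 8.35 in antagomiR-138 cells, against 7.99, 7.99 and 8.00 in control cells. Its difference of 0.45 (SE 0.06, adjusted p = 7.61e-04) was larger than the spread in either group.

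ST6GALNAC6, a ganglioside sialyltransferase, was higher by 0.42 and ST3GAL4, a further lactosamine sialyltransferase, by 0.26. ST3GAL1, which sialylates core 1, fell by 0.38 and ST3GAL5, the GM3 synthase, by 0.26. The calls of ST3GAL4 and ST3GAL1 were each lost when any of 4 single arrays was left out. For ST3GAL4 these were antagomiR-138 replicates 2 and 3 and control replicates 1 and 3, at adjusted p = 0.0663 to 0.0853, and for ST3GAL1 antagomiR-138 replicates 2 and 3 and control replicates 1 and 2, at adjusted p = 0.0531 to 0.0758. ST3GAL4 also did not pass with median scaling (adjusted p = 0.2384), cyclic loess (0.05625) or no detection filter (0.05359). With the methods' t-test, ST3GAL4 (adjusted p = 0.06235) and ST3GAL1 (0.08097) were lost. Second probes of ST3GAL1 (-0.48) and ST3GAL5 (-0.15) had the same sign as the probe used.

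Of the 9 fucosyltransferase genes on the array, 3 were tested and FUT4 was the single call. FUT4, which makes the Lewis x antigen, had a log2 signal of 9.17, 9.12 and 9.22 in antagomiR-138 cells, against 7.98, 7.91 and 7.83 in control cells. It was 2.40-fold higher (log2 fold change 1.26, SE 0.06, adjusted p = 1.10e-05), with no overlap. A dimmer FUT4 probe, detected on 5 arrays, gave 0.25 and did not pass the test (adjusted p = 0.350). FUT8, which adds the core fucose of N-glycans, had 0.17 (adjusted p = 0.127). FUT6 had -0.02 (adjusted p = 0.934), and as FUT3, FUT5 and FUT6 are near-identical its probe may read more than 1 of them. In all, 10 glycosyltransferase genes had more than 1 probe in the test. Both probes were called only in B4GALT4, ST3GAL1, ST3GAL3 and ST6GALNAC4, with the same sign in each. In the others, called probes could not go both ways. The second probes of B4GALT4 (0.46), GCNT1 (0.04), GCNT2 (0.04) and MGAT5 (-0.12) had the sign of the probe used, and that of B4GALT2 (-0.24) had the other sign.

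**Figure D4:**
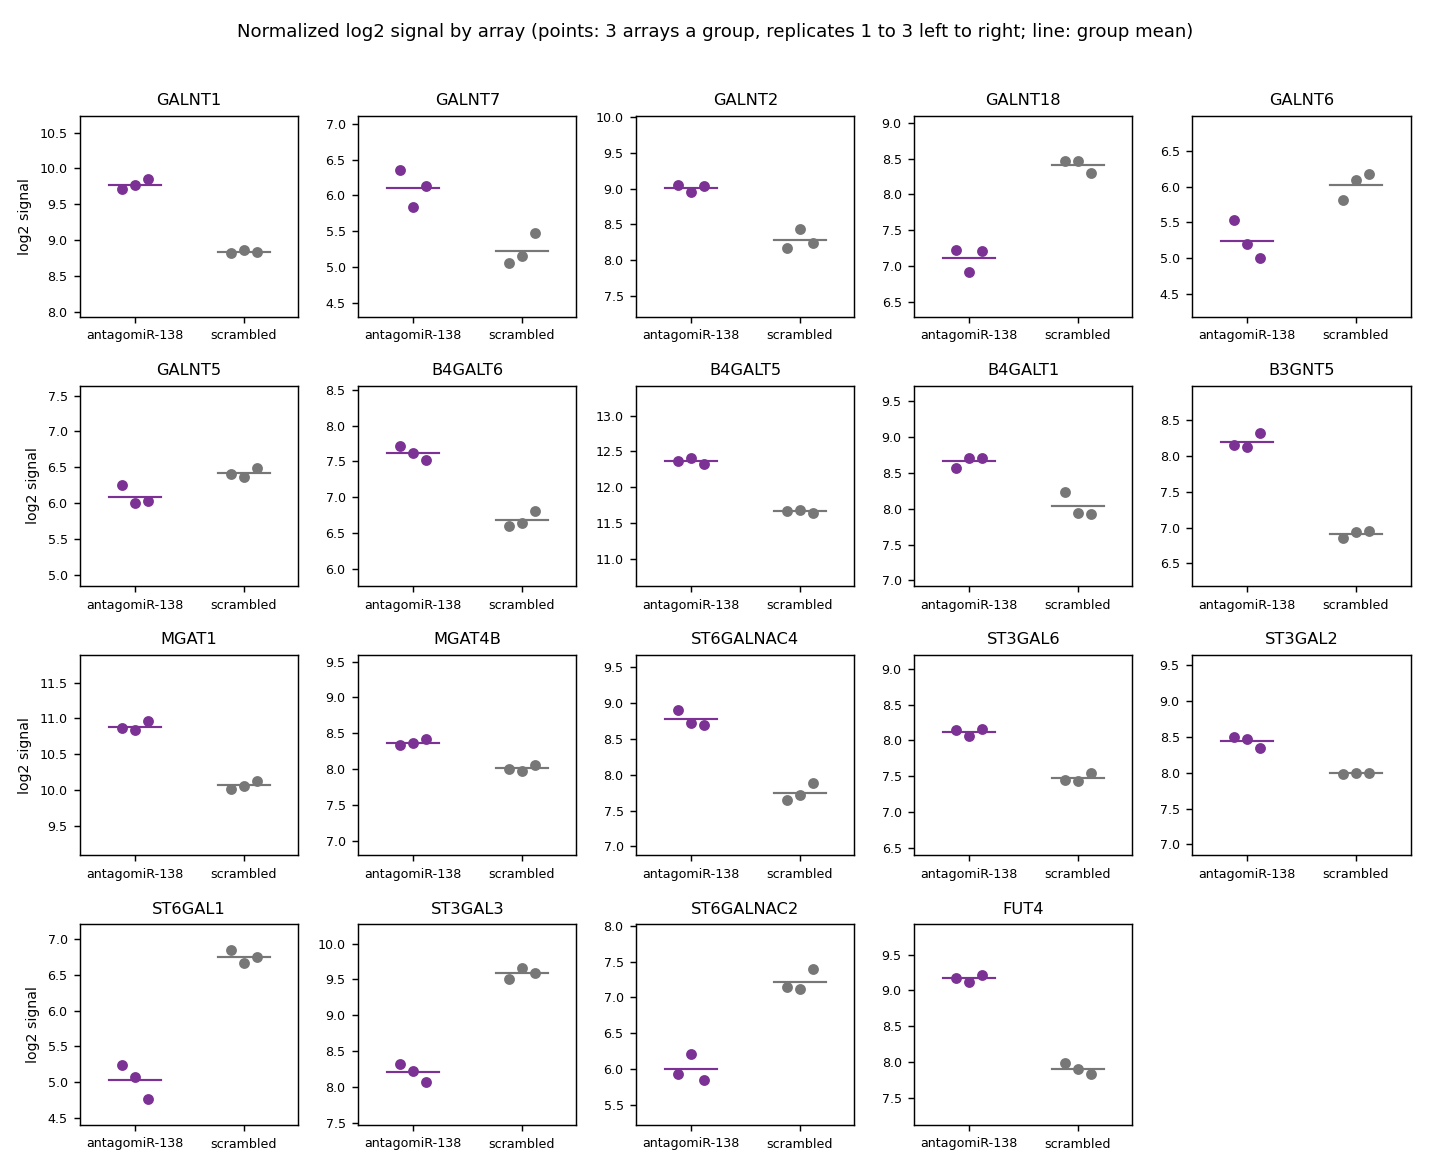
The normalized log2 signal (y axis, each panel spanning the same log2 range) is plotted on each array for the 19 glycosyltransferase genes with the largest called changes of their class, with antagomiR-138 left of scrambled control and a line at each group mean. A panel was drawn only where a called gene had its 3 antagomiR-138 arrays clear of its 3 control arrays. The separation in all 19 panels therefore follows from this choice, and 66.6% of all genes tested were also separated. The group means lie nearest for GALNT5 and MGAT4B, and the ST6GAL1 signals of antagomiR-138 cells are not above background.

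Around these enzymes, genes of the rest of the glycosylation pathway are given from 8 lists holding 156 genes. Their counts stand beside 30.9% higher and 29.1% lower among all genes tested, and no list was tested against these shares. The nucleotide sugar transporters, which carry donors into the Golgi, had 6 of 10 tested genes higher and 0 lower (median log2 fold change 0.42). SLC35D2, a transporter of UDP-GlcNAc, was higher by 1.10, and SLC35A2, the UDP-galactose transporter, by 0.65. The nucleotide sugar synthesis genes had 6 of 20 higher and 8 lower (median -0.09). GNPNAT1, of UDP-GlcNAc synthesis, was higher by 0.64 and FCSK, the fucose kinase, by 0.62, while UGDH, which makes UDP-glucuronic acid, had -1.76 and GMPPB, which makes GDP-mannose, -1.05.

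The list of core 1 and other GalNAc enzymes, which also holds further O-linked sugar enzymes and glycolipid enzymes, had 5 of 15 tested genes higher and 3 lower (median 0.07). C1GALT1, which builds core 1 on the GalNAc laid down by the GALNT enzymes, was higher by 0.90 (SE 0.06, adjusted p = 3.36e-05), and its chaperone C1GALT1C1 had 0.07 (adjusted p = 0.421). EOGT, an O-GlcNAc transferase of extracellular proteins, was higher by 0.90, and B3GALNT1, the globoside synthase, fell by 0.71. MFNG, a Notch-modifying enzyme, was above background on 0 antagomiR-138 arrays and 3 control arrays, a bound of at least 1.58-fold lower. Its limma adjusted p of 0.00801 is for the signals without this bound and does not test the bound.

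N-glycan transfer and trimming had 12 of 23 tested genes higher and 6 lower (median 0.20). ALG3 and ALG6, which build the lipid-linked precursor, were higher by 1.15 and 0.77, while GANAB, a subunit of glucosidase II, had -2.31 and MAN2A1, the Golgi mannosidase that acts after MGAT1, -1.60. Glycan-degrading enzymes had 3 of 10 higher and 5 lower (median -0.21). Of these, FUCA1, the lysosomal fucosidase, had 0.78 and HEXA, a hexosaminidase subunit, 0.65, against -0.80 for MAN2C1, a cytosolic mannosidase, and -0.74 for NEU1, the lysosomal sialidase.

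Mucins and mucin-like carriers, which bear O-glycans, had 3 of 12 tested genes higher and 4 lower (median -0.12). CD24 had 0.73 and PODXL2 0.44, against -0.63 for CD34 and -0.59 for MUC1, the main epithelial mucin of the breast. Galectins and other glycan readers had 1 of 11 higher (CANX, a chaperone that binds glucosylated N-glycans, 0.18) and 2 lower (CALR, its soluble relative, -0.55 and LMAN1, a cargo lectin, -0.44), with a median of -0.10. Genes of Golgi structure had 10 of 20 higher and 4 lower (median 0.24), led by COG5 (0.95), a subunit of a tethering complex, and GOLGA4 (0.75), a golgin, with GOLPH3L (-1.59) and COG7 (-0.54) lowest.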

How the data were processed

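Total RNA was labelled as biotinylated cRNA and hybridized by the authors to Illumina bead arrays. The methods name a different Illumina design from the probe annotation used here, so genes were named through probe identifiers: of 47322 probes, 30113 had 1 gene symbol, 8 several and 17201 none there. The authors deposited background-subtracted probe intensity, not normalized between arrays, with a detection p-value for each, and a further table of normalized intensity. GenomeStudio 1.9.0 stands in the submitters' processing notes and BeadStudio and PARTEK in the methods, with no background correction stated in either.

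Intensities were corrected and quantile-normalized with neqc (log2, offset 16) in limma 3.58.1 under R 4.3.3. A probe entered where its detection p was below 0.05 on 3 or more arrays (20051 probes, 15182 of them with 1 gene), and a gene took its brightest entering probe. Log2 values were fitted with lmFit and eBayes over the 6 samples, two-sided and without covariates. Where a probe was above background on no array of 1 group, a fold is a bound on this scale. Between 40.7% and 43.2% of probes were detected on an array; the precision is limited by how few arrays there are.

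The genes, the other glycosylation lists and the tests were chosen with earlier results of these data known. Values of every array are given for up to 3 largest rises and 3 largest falls of each class among called genes with groups that do not overlap, and for genes with a bound; from each other list the 2 largest rises and falls among called genes are named, with C1GALT1 and C1GALT1C1. Alternatives were other background corrections, normalizations, filters and variance settings, the authors' normalized table, averaged probes, a block for replicate number, the methods' t-test and each array left out. The fit was tested on simulated data in which few genes changed, equally up and down. That does not test it under a difference as broad as here, where 60.1% of genes were called. No slide term was fitted, as the sources used here name none. Start-site windows and miRNA sequences came from RefSeq (GRCh38.p14). Figures were drawn with matplotlib 3.10.9 in Python 3.11.15.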

Additional observations from a re-analysis of the deposited data

How the results depend on the processing

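Of the 32 called glycosyltransferase genes, 23 kept their call and direction under each of 19 alternative settings in which they were tested, and 29 were tested in all 19. The other 9 (B3GNT2, GALNT3, GALNT4, GALNT5, GCNT1, MGAT2, MGAT4B, ST3GAL1 and ST3GAL4) lost it in at least 1 setting, and 6 uncalled genes (B4GALT2, FUT8, GALNT13, GCNT2, MGAT4A and MGAT5) gained one in at least 1. The gained calls were higher for B4GALT2, FUT8 and GCNT2, and lower for GALNT13, MGAT4A and MGAT5. No called gene changed direction; B3GNT4, B3GNT6, FUT6 and GALNT12, never called, and B4GALT2 and GALNT13 took both signs. The count of higher genes was 20 to 22 and of lower genes 7 to 8 with single arrays left out. They were 18 higher and 9 lower with median scaling and 21 and 9 with cyclic loess. At a change of at least 1.5-fold the counts were 11 higher and 5 lower, and at an adjusted p under 0.01 they were 18 and 5. Among all genes, median scaling gave 2468 higher and 3094 lower (44.4% of calls higher, against 51.5%), and the methods' t-test 3127 and 3003 after Benjamini-Hochberg adjustment. Cyclic loess gave 3230 higher and 3622 lower among all genes (47.1% of calls higher). With single arrays left out, 3180 to 3287 of all genes were higher and 3040 to 3175 lower. All genes were not counted at an adjusted p under 0.01.

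The median log2 fold change of O-glycan initiation was 0.29 with an offset of 50, 0.28 with no background correction, -0.0076 with no detection filter, and 0.28 to 0.43 with single arrays left out. That of galactosylation was 0.46 with median scaling, 0.47 with cyclic loess, 0.30 with no detection filter and 0.50 to 0.55 with single arrays left out. That of GlcNAc extension and branching was 0.1704 with median scaling, 0.1701 with cyclic loess, 0.0369 with no filter, 0.24 with each of 3 stricter filters, 0.12 with the mean of probes, and 0.16 to 0.21 with single arrays left out. That of sialylation was -0.0711 with median scaling, -0.0477 with cyclic loess, -0.0637 with no filter, 0.26 where all 6 arrays had to be detected, which drops ST6GAL1, and -0.0426 to 0.0519 with single arrays left out, so its sign is not settled. That of fucosylation was -0.0231 with no filter and 0.12 to 0.23 with single arrays left out. With no filter, the genes near background enter; otherwise the cause was not tested.

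Same-numbered samples deviated together with correlations of 0.0017, 0.0155 and 0.0526, against -0.0452 to 0.0314 for other pairs, so the numbers were not taken to pair the samples. With the replicate number as a block, 24 glycosyltransferase genes were higher and 8 lower. In that fit, 3355 of all 11426 genes tested were higher and 3231 lower (57.6% called).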
